A study of Homo sapiens with 12 samples.

Results

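The genes described here are 57 chromatin writers, erasers, readers and remodelers chosen by symbol and function. They comprise 4 class I histone deacetylases, 7 deacetylases of classes II and IV, 7 sirtuins, 4 genes of Polycomb repressive complex 2, 6 H3K4 methyltransferases, 5 H3K36 and H3K79 methyltransferases, 11 histone demethylases, 3 DNA methyltransferases, 3 TET dioxygenases, 3 bromodomain readers and 4 SWI/SNF ATPases and ARID subunits. Of 29094 transcript accession rows in the count table, 64 belonged to 56 of the 57 genes, and no row was found for EED. For 7 genes with more than 1 row (HDAC2, HDAC4, HDAC8, SIRT2, KDM2A, KDM6A and TET2) the row with the most counts was used, and the level of such a gene is uncertain. After removal of rows with low counts, 54 genes were tested among 13424 rows.

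Messenger RNA was sequenced from MCF10AT, a human mammary epithelial cell line that had been transformed by HRasG12V. Stable lines of 4 kinds had been made by lentiviral transduction and puromycin selection, with 3 libraries each. EP300 KD1 and EP300 KD2 carried 2 different shRNAs against EP300, the gene of the histone acetyltransferase p300, and NS1 and NS2 carried non-silencing controls. Each hairpin had a corresponding control that the labels do not name, so EP300 KD1 was set against NS1 and EP300 KD2 against NS2. All 4 groups share the HRAS-driven background, and the labels do not say whether a line was a clone or whether replicates were separate cultures.

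Histone acetyltransferases such as p300 add acetyl groups to lysines of histones and other proteins, and histone deacetylases and sirtuins remove them. Polycomb repressive complex 2 methylates H3K27 at silenced genes, while the KMT2 and SETD1 enzymes methylate H3K4 at active promoters and enhancers. Demethylases of the KDM families reverse these marks. DNA methyltransferases copy or place methyl groups on cytosine, TET enzymes oxidise them, bromodomain proteins bind acetylated lysine, and SWI/SNF complexes move nucleosomes with the energy of ATP. Genes of several of these classes are recurrently altered in breast and other carcinomas.

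EP300 itself (NM_001429, chr22:41092592-41180077, hg38) measured 108, 106 and 108 CPM in EP300 KD1 libraries, against 171, 177 and 167 CPM in NS1 libraries. It measured 95.1, 99.9 and 92.3 CPM in EP300 KD2 libraries, against 165, 180.3 and 177 CPM in NS2 libraries. CPM here are counts scaled to library size by TMM and not divided by transcript length, so that levels are compared between libraries and not between genes. EP300 was thus lower in every shRNA library, with log2 fold changes of -0.68 ± 0.035 and -0.86 ± 0.035 (SE), and was reduced further by the second hairpin (difference -0.18 ± 0.05 SE, adjusted p = 0.00488), whereas the paralogue CREBBP did not pass the test with either hairpin (log2 -0.03 and -0.06, adjusted p = 0.445 and 0.0916). Library totals ran from 31396653 to 45606950 counts. Of the mammary epithelial markers, KRT5 was at 1378 CPM or more, KRT18 at 933 CPM or more and EPCAM at 174.5 CPM or more in every library. Others were low, with KRT8 at 2.09 to 3.81 CPM, KRT19 at 0.22 to 2.71 CPM and KRT14 at 1.11 CPM or less. The summed level of 13 such markers was 6753 to 6940 CPM in EP300 KD1 libraries against 8499 to 8757 CPM in NS1 libraries. That sum was 5571 to 5698 CPM in EP300 KD2 libraries against 9915 to 10050 CPM in NS2 libraries. Of these 13 markers, 3 were called higher and 9 lower with the first hairpin, and 0 higher and 12 lower with the second. Of all rows, 32.6% were higher and 32.3% lower with the first hairpin, and 27.9% and 29.9% with the second. The fibroblast genes COL1A2, COL3A1 and LUM were at 0 in all 12 libraries. Other genes of that list were present, with FAP at 34.1 to 52.8 CPM, DCN at 4.06 to 43.9 CPM and COL1A1 at 7.90 to 18.6 CPM. Whether the assignment of reads gives the 0 of COL1A2, COL3A1 and LUM, or the low level of KRT8, was not tested. Summed over its 10 genes, a fibroblast list was at 118 to 122 CPM in EP300 KD1 libraries against 57.3 to 60.1 CPM in NS1 libraries, and at 57.8 to 59.5 CPM in EP300 KD2 libraries against 48.9 to 53.6 CPM in NS2 libraries. A leukocyte list of 8 genes was at 80.1 to 89.2 CPM in EP300 KD1 against 56.4 to 67.5 CPM in NS1, and at 45.9 to 48.3 CPM in EP300 KD2 against 70.3 to 72.0 CPM in NS2. Within it PTPRC was at 0.0309 CPM or less, while CD14 was at 15.4 to 50.7 CPM and CD68 at 11.2 to 43.9 CPM. Of 5 leukocyte genes tested, 3 were called higher and 1 lower with the first hairpin, and 2 higher and 1 lower with the second. Endothelial genes (5) summed to 13.1 to 15.7 CPM in EP300 KD1 against 28.8 to 32.9 CPM in NS1, and to 6.40 to 7.04 CPM in EP300 KD2 against 38.6 to 40.6 CPM in NS2. Most counts of this list over the 12 libraries were of PECAM1, at 4.97 to 40.1 CPM. Of 3 endothelial genes tested, 2 were called higher and 1 lower with the first hairpin. With the second, 1 was higher and 1 lower. A list of 6 genes of HEK293 and neural-type packaging cells, nearly all of it TUBB3, summed to 99.6 to 113 CPM in EP300 KD1 against 50.1 to 56.3 CPM in NS1, and to 114 to 122 CPM in EP300 KD2 against 40.8 to 42.0 CPM in NS2. The part of these genes in the results below was not tested. RNA was taken from whole cultures, in which fewer cells of a type and less RNA per cell cannot be told apart.

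Most of the chromatin genes changed, but by little. With the first hairpin, 35 of the 54 genes tested (64.8%) passed the threshold of an adjusted p of 0.05, 14 higher and 21 lower, while 64.9% of all rows tested passed. With the second hairpin 38 of 54 (70.4%) passed, 19 higher and 19 lower, against 57.8% of all rows. Median absolute log2 fold changes were 0.15 with the first hairpin and 0.15 with the second over the chromatin genes, beside 0.24 and 0.20 over all rows. The rows were not matched to the chromatin genes by level of expression. Changes that passed and reached 0.5 on the log2 scale numbered 6 of 54 genes with the first hairpin and 5 of 54 with the second, where 23.2% and 18.6% of all rows did so. These were DNMT3A, DNMT3B, HDAC9, EZH2, SIRT2 and SIRT4 with the first and DNMT3A, DNMT3B, HDAC9, HDAC5 and SIRT2 with the second. SIRT2 and SIRT4 were under 1 CPM on average, and another row of SIRT2 passed with neither hairpin. The share of calls near the background is not a result about these genes, and the direction of the second count depended on scaling (24 higher and 13 lower with library totals alone, 21 higher and 13 lower with upper-quartile factors). Over all rows, 48.2% of the calls with the second hairpin were higher, and 61.3% with library totals alone.

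**Figure D1:**
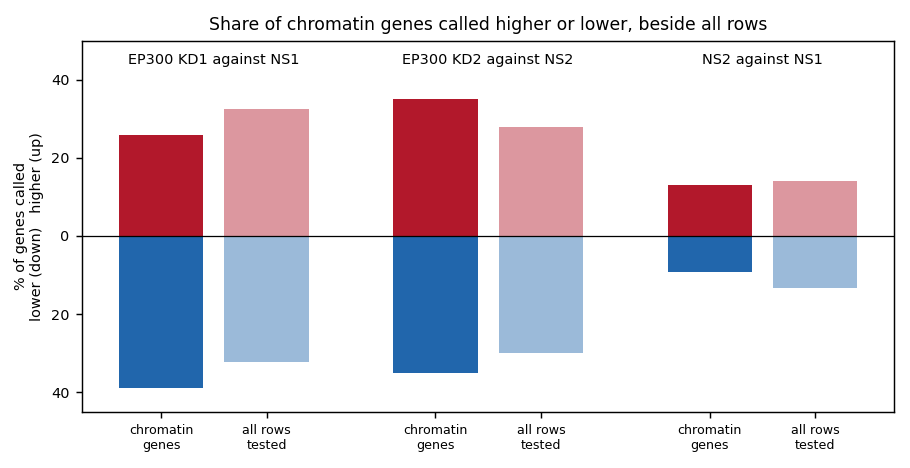
Share of genes called higher (up) or lower (down), in percent, for the 54 chromatin genes tested (dark bars) and all 13424 rows tested (light bars). Chromatin genes were called as often as other rows with the first hairpin (64.8% and 64.9%), in 70.4% against 57.8% with the second, and in 22.2% against 27.5% between the control lines.

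**Figure D2:**
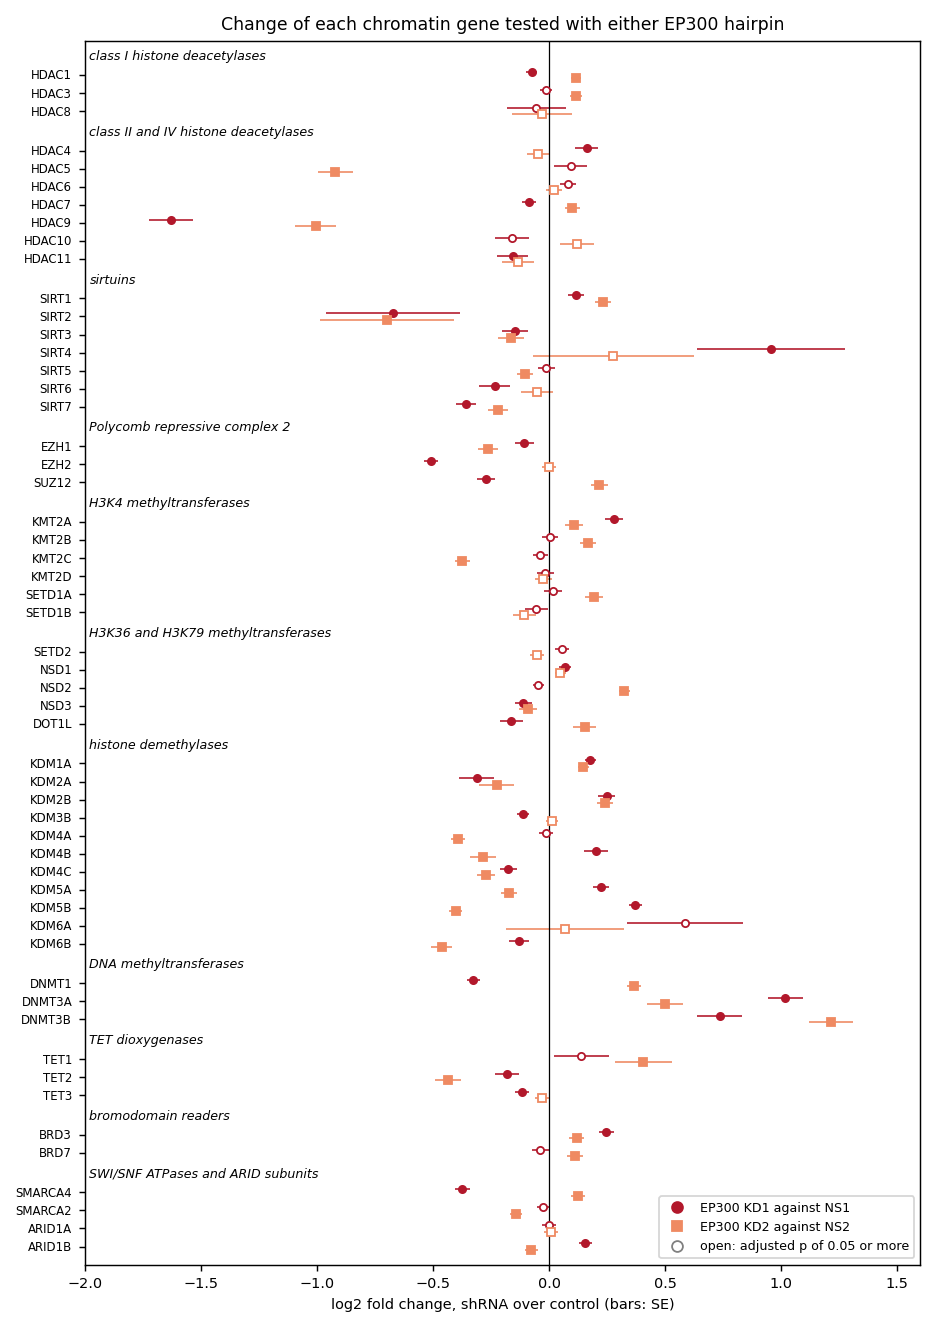
Log2 fold change of each of the 54 genes tested, shRNA over control, with its SE, for EP300 KD1 (circles) and EP300 KD2 (squares); open symbols have an adjusted p of 0.05 or more. Most points lie close to 0, and HDAC9, DNMT3A and DNMT3B lie far from it in the same direction with both hairpins.

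Among the DNA methyltransferases, both de novo enzymes rose with both hairpins, while the maintenance enzyme fell with one and rose with the other. DNMT3A, which places methyl groups on unmethylated DNA (NM_175629, chr2:25227874-25342590), had 13.9, 14.2 and 13.7 CPM in EP300 KD1 libraries, against 7.5, 7.01 and 6.202 CPM in NS1 libraries. It had 9.13, 9.95 and 9.57 CPM in EP300 KD2 libraries, against 6.45, 6.68 and 7.1 CPM in NS2 libraries. All 6 shRNA libraries were above all 6 control libraries. The level was 2.02-fold higher with the first hairpin, a log2 fold change of 1.02 ± 0.076 (SE, adjusted p = 6.9e-10), and 1.41-fold higher with the second, a log2 fold change of 0.50 ± 0.078 (SE, adjusted p = 1.9e-05). The rise was smaller with the second hairpin (difference between the hairpins' log2 changes -0.52 ± 0.11 SE, adjusted p = 0.000596).

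DNMT3B, the second de novo methyltransferase (NM_006892, chr20:32762385-32809356), had 7.701, 8.77 and 6.71 CPM in EP300 KD1 libraries, against 4.81, 5.04 and 4.15 CPM in NS1 libraries. Its level was 11.8, 12.5 and 12.1 CPM in EP300 KD2 libraries, against 5.21, 5.15 and 5.35 CPM in NS2 libraries. ShRNA and control libraries did not overlap in either set, and all EP300 KD2 libraries were also above all EP300 KD1 libraries. The changes were 1.66-fold (log2 0.73 ± 0.098 SE, adjusted p = 2.21e-06) with the first hairpin and 2.32-fold (log2 1.21 ± 0.094 SE, adjusted p = 1.58e-09) with the second. DNMT3B thus rose further with the second hairpin, the opposite order to DNMT3A (difference 0.48 ± 0.14 SE, adjusted p = 0.00645).

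DNMT1, which copies methylation to the new strand after replication (NM_001130823, chr19:10133346-10194953), had 159.6, 173 and 162 CPM in EP300 KD1 libraries, against 209, 211 and 201 CPM in NS1 libraries. It had 272, 280.0 and 272 CPM in EP300 KD2 libraries, against 211, 214 and 214 CPM in NS2 libraries. EP300 KD1 libraries were the lowest and EP300 KD2 libraries the highest of the 12, with both controls between them. DNMT1 fell with the first hairpin (log2 -0.33 ± 0.03 SE, adjusted p = 1.41e-08) and rose with the second (log2 0.37 ± 0.029 SE, adjusted p = 2.17e-09), and the difference of 0.69 ± 0.042 (SE, adjusted p = 1.04e-10) passed as well. The control lines did not differ detectably in it (log2 0.04, adjusted p = 0.314).

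**Figure D3:**
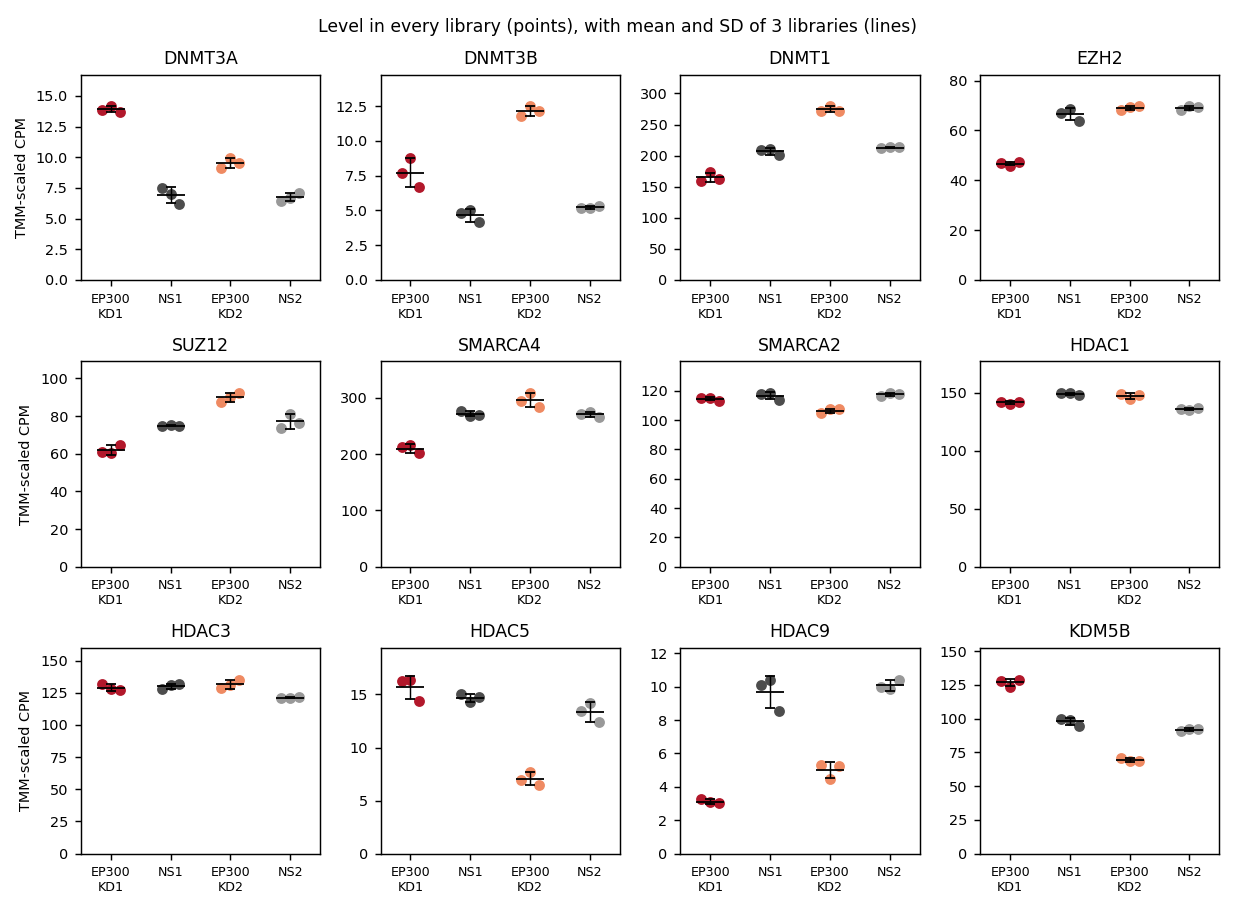
TMM-scaled CPM in every library (points), with the mean and SD of 3 libraries (lines), for 12 chromatin genes, each hairpin left of its control. DNMT3A and DNMT3B are higher and HDAC9 is lower in all shRNA libraries, whereas DNMT1, SUZ12, SMARCA4 and KDM5B move in opposite directions with the hairpins.

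Of the TET dioxygenases, which oxidise methylcytosine, TET2 fell with both hairpins (log2 -0.18 ± 0.053 SE, adjusted p = 0.0057 with the first and -0.44 ± 0.054 SE, adjusted p = 1.17e-06 with the second), and further with the second (difference -0.26, adjusted p = 0.00854). TET2 has 2 accession rows in the table and its level is uncertain. TET3 was lower with the first hairpin only by a small amount (log2 -0.12 ± 0.031 SE, adjusted p = 0.0026) and did not pass with the second (log2 -0.03, adjusted p = 0.424). TET1 was higher with the second hairpin, at 3.54 ± 0.445 CPM in EP300 KD2 against 2.66 ± 0.0434 CPM in NS2 (SD, n = 3 each; log2 0.41 ± 0.12 SE, adjusted p = 0.00797), and did not pass with the first (log2 0.14, adjusted p = 0.319). No difference between the hairpins was called for TET1 (adjusted p = 0.205) or TET3 (adjusted p = 0.109). Against all 6 control libraries together, the first change of TET1 (log2 0.29) and the second of TET3 (log2 -0.08) were called.

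Polycomb repressive complex 2 genes moved unequally with the hairpins. EZH2, its H3K27 methyltransferase in dividing cells (NM_001203249, chr7:148807383-148884291), had 46.8, 45.9 and 47.2 CPM in EP300 KD1 libraries, against 67.0, 68.7 and 63.8 CPM in NS1 libraries. The EP300 KD2 libraries held 68.2, 69.5 and 69.7 CPM of it, against 68.1, 69.8 and 69.3 CPM in NS2 libraries. All EP300 KD1 libraries were below all others, and the libraries of the second set overlapped. EZH2 fell 1.42-fold with the first hairpin (log2 -0.51 ± 0.032 SE, adjusted p = 5.89e-11), had a log2 fold change of 0.00023 ± 0.031 with the second (SE, adjusted p = 0.996), and differed between the hairpins (difference 0.51 ± 0.044 SE, adjusted p = 1.73e-08).

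SUZ12, a core subunit that the complex needs for its activity (NM_015355, chr17:31937007-32001038), had 60.9, 60.3 and 64.9 CPM in EP300 KD1 libraries, against 74.5, 75.1 and 75.0 CPM in NS1 libraries. It had 87.3, 90.0 and 92.4 CPM in EP300 KD2 libraries, against 73.8, 81.4 and 76.5 CPM in NS2 libraries. Neither set overlapped, and the order of the groups was that of DNMT1. SUZ12 fell with the first hairpin (log2 -0.27 ± 0.037 SE, adjusted p = 3.27e-06), rose with the second (log2 0.22 ± 0.036 SE, adjusted p = 3.57e-05), and differed between them (difference 0.49 ± 0.052 SE, adjusted p = 2.36e-07). EZH1, the alternative catalytic subunit, fell with the second hairpin (log2 -0.26 ± 0.043 SE, adjusted p = 3.17e-05), with 33.1 ± 0.792 CPM in EP300 KD2 and 39.7 ± 2.07 CPM in NS2 (SD, n = 3 each). With the first hairpin EZH1 also passed (log2 -0.11 ± 0.042 SE, adjusted p = 0.0332), but not without NS1 replicate 1 (-0.09), NS1 replicate 3 (-0.11) or EP300 KD1 replicate 3 (-0.07), nor in 3 other alternatives.

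The SWI/SNF ATPase SMARCA4, also called BRG1 (NM_003072, chr19:10961030-11062273), followed the same order as DNMT1 and SUZ12. It had 212, 216 and 202 CPM in EP300 KD1 libraries, against 277, 268 and 269.9 CPM in NS1 libraries. In EP300 KD2 libraries it had 295, 309 and 283 CPM, against 271, 275 and 266 CPM in NS2 libraries. The libraries overlapped in neither set. SMARCA4 fell 1.295-fold with the first hairpin (log2 -0.37 ± 0.031 SE, adjusted p = 4.45e-09) and rose slightly with the second (log2 0.13 ± 0.031 SE, adjusted p = 0.0018, and 0.19 with library totals alone), with a difference of 0.50 ± 0.044 (SE, adjusted p = 2.16e-08). The other ATPase, SMARCA2 or BRM (NM_139045, chr9:2015347-2193620), had 115, 115 and 113 CPM in EP300 KD1 libraries, against 118, 119 and 114 CPM in NS1 libraries, which overlapped (log2 -0.02, adjusted p = 0.397). SMARCA2 had 105, 107 and 107 CPM in EP300 KD2 libraries, against 117, 118 and 118 CPM in NS2 libraries. It was lower in all 3 of these shRNA libraries (log2 -0.14 ± 0.025 SE, adjusted p = 7.2e-05, and -0.08 with library totals alone). Of the ARID subunits, which help SWI/SNF complexes bind DNA, ARID1A did not pass with either hairpin (log2 -0.00039 ± 0.029 and 0.01 ± 0.029, SE). ARID1B rose with the first hairpin (log2 0.16 ± 0.028 SE, adjusted p = 8.38e-05), and with the second its log2 fold change was -0.08 ± 0.028 (SE, adjusted p = 0.0279), a call lost in 14 of 23 alternative settings.

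Genes of S phase and DNA replication, a list of 37 that includes the MCM helicase subunits, moved in the same order as DNMT1, SUZ12 and SMARCA4. The list was chosen with earlier results of these data known. Of 35 tested, 34 were called lower with the first hairpin, against 32.3% of all rows (median log2 fold change -0.66, against -0.0058). With the second, 34 were called higher, against 27.9% of all rows (median 0.43, against -0.0021). Their summed level was 2032 to 2062 CPM in EP300 KD1 libraries against 3066 to 3115 CPM in NS1 libraries, and 4046 to 4181 CPM in EP300 KD2 libraries against 2969 to 3027 CPM in NS2 libraries. The part of the replication genes in the changes of DNMT1, EZH2, SUZ12 and SMARCA4 was not tested.

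**Figure D4:**
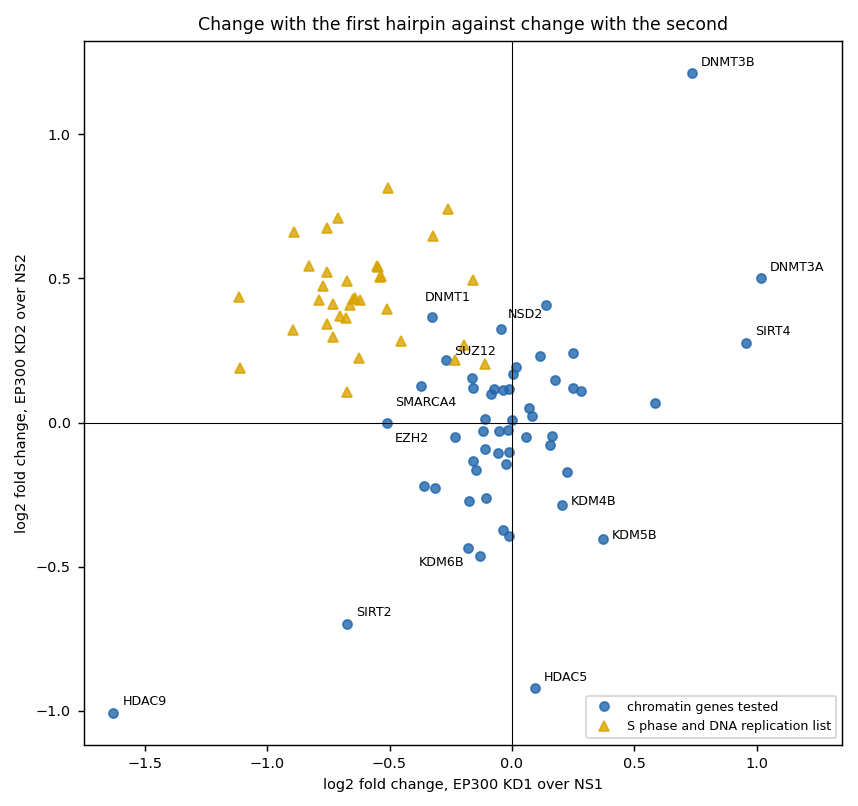
Log2 fold change with the second hairpin (vertical) against that with the first (horizontal) for the 54 chromatin genes tested (circles) and the 35 tested genes of the S phase list (triangles). The replication genes fill the upper left of the plot, where DNMT1, SUZ12 and SMARCA4 also lie, while DNMT3A, DNMT3B and HDAC9 lie on the other diagonal.

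The bases upstream of these 4 genes are shown, a choice made with their values in view. All 4 are among the 21 chromatin genes called lower with the first hairpin. Factors of the cell cycle act through short strings in such regions, and whether they act on these genes was not tested. Each run holds the 250 bases before a RefSeq transcript start on the gene's strand (GRCh38.p14). Capitals mark the strings searched on both strands, which were TTCCCGC and TTCGCGC (cores of E2F sites), CCAAT and TGACGTC (the cAMP response core). None of these 4 strings overlaps another in the runs shown.
DNMT1: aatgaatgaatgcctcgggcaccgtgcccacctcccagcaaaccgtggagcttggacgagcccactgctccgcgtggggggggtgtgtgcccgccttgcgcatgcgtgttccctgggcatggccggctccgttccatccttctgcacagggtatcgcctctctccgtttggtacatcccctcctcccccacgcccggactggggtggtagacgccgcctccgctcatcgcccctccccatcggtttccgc
SUZ12: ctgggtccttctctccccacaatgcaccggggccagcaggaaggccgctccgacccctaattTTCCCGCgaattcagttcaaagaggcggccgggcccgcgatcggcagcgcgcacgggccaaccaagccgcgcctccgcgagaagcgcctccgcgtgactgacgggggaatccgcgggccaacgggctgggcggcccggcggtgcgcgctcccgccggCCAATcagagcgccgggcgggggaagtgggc
EZH2: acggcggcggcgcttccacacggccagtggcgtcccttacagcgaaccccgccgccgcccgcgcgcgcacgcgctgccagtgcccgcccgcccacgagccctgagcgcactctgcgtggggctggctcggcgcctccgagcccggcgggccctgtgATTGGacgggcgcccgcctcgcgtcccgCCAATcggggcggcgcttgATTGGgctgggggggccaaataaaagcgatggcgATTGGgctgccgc
SMARCA4: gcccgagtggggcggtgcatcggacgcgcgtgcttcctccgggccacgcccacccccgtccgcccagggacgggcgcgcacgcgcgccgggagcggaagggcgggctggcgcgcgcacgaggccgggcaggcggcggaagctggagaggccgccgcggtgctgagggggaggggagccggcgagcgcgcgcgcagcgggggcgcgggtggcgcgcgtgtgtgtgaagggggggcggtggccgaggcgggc

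The windows are chr19:10194954-10195203 (minus strand), chr17:31936757-31937006 (plus), chr7:148884292-148884541 (minus) and chr19:10960780-10961029 (plus), the last 2 being the most upstream of 2 windows each. SUZ12 held TTCCCGC at -188 and CCAAT at -31, counted from the first base of the string to the transcript start. That start is less certain. The 20 bases after the SUZ12 window were not found near the start of a GENCODE transcript of the gene, unlike those of DNMT1, EZH2 and SMARCA4. EZH2 held 4 CCAAT strings, 1 on the gene's strand at -66 and 3 on the other strand at -94, -47 and -13, and these letters did not occur in the DNMT1 and SMARCA4 windows. TTCCCGC occurred in 10% of 90 windows of 52 of the chromatin genes and in 5.52% of all 35116 RefSeq windows of that length. TTCGCGC occurred in 0 and 1.85%, CCAAT in 30% and 32%, and TGACGTC in 4.44% and 3.12%. The median number of CG dinucleotides was 22.5 in the windows of chromatin genes and 11 in all windows. The other members with TTCCCGC were BRD7, HDAC4, HDAC6, HDAC9, NSD2, SIRT6 and TET3.

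Class I deacetylases changed little. HDAC1, a catalytic subunit of the Sin3, NuRD and CoREST complexes (NM_004964, chr1:32292083-32333626), had 142, 141 and 142 CPM in EP300 KD1 libraries, against 150.1, 149 and 148 CPM in NS1 libraries. It had 149, 145 and 148 CPM in EP300 KD2 libraries, against 136, 135 and 137 CPM in NS2 libraries. Neither hairpin overlapped its control, and the NS2 libraries were the lowest of the 12. HDAC1 was lower with the first hairpin (log2 -0.07 ± 0.023 SE, adjusted p = 0.00782) and higher with the second (log2 0.12 ± 0.023 SE, adjusted p = 0.000241), but it was also lower in NS2 than in NS1 (log2 NS2 over NS1 -0.14 ± 0.023 SE, adjusted p = 0.000211). Against all 6 control libraries together, the first change was -0.01 and did not pass, and with library totals alone the second was 0.19.

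HDAC3, the catalytic subunit of the NCoR and SMRT complexes (NM_003883, chr5:141620881-141636849), had 132, 128 and 127 CPM in EP300 KD1 libraries, against 128, 131 and 131 CPM in NS1 libraries. Its levels were 128, 131 and 135 CPM in EP300 KD2 libraries, against 121, 121 and 122 CPM in NS2 libraries. The first set overlapped and the second did not, and NS2 was the lowest of the 4 groups. HDAC3 passed with the second hairpin (log2 0.12 ± 0.026 SE, adjusted p = 0.000797) and not with the first (log2 -0.01, adjusted p = 0.661), and was lower in NS2 than in NS1 (log2 -0.10, adjusted p = 0.0062). HDAC8, an X-linked deacetylase, passed with neither (log2 -0.05 ± 0.13 and -0.03 ± 0.13, SE). HDAC2 had 3 counts in all over its 3 rows and 12 libraries, and is not described further.

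Class IIa held the largest changes among the deacetylases. HDAC9, which binds MEF2 factors (NM_001204144, chr7:18086825-19002416), had 3.27, 3.07 and 3.02 CPM in EP300 KD1 libraries, against 10.1, 10.4 and 8.56 CPM in NS1 libraries. It had 5.28, 4.48 and 5.28 CPM in EP300 KD2 libraries, against 9.95, 9.84 and 10.4 CPM in NS2 libraries. All 6 shRNA libraries were below all 6 controls, and EP300 KD1 libraries were below EP300 KD2 libraries. HDAC9 fell 3.09-fold with the first hairpin (log2 -1.63 ± 0.096 SE, adjusted p = 2.27e-11) and 2.01-fold with the second (log2 -1.01 ± 0.09 SE, adjusted p = 1.28e-08), with a difference of 0.62 ± 0.13 (SE, adjusted p = 0.000655).

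HDAC5, another class IIa enzyme (NM_005474, chr17:44076753-44123641), had 16.2, 16.4 and 14.4 CPM in EP300 KD1 libraries, against 15.03, 14.3 and 14.8 CPM in NS1 libraries. It had 6.95, 7.72 and 6.48 CPM in EP300 KD2 libraries, against 13.4, 14.2 and 12.4 CPM in NS2 libraries. The EP300 KD2 libraries alone stood apart, below all 9 others. HDAC5 fell 1.89-fold with the second hairpin (log2 -0.92 ± 0.076 SE, adjusted p = 4.36e-09), did not pass with the first (log2 0.09 ± 0.07, adjusted p = 0.255), and differed between the hairpins (difference -1.01 ± 0.10 SE, adjusted p = 1.51e-07). Against all 6 controls together the first change of HDAC5 passed (log2 0.16). Of the remaining enzymes of classes II and IV, HDAC7 was higher with the second hairpin (log2 0.10 ± 0.031 SE, adjusted p = 0.00844). With the first hairpin HDAC7 had -0.09 ± 0.031 (SE, adjusted p = 0.0196), a call lost with upper-quartile factors (-0.07) and without NS1 replicate 2 (-0.07), EP300 KD1 replicate 1 (-0.07) or EP300 KD1 replicate 3 (-0.08). HDAC4 was called with the first hairpin (log2 0.16 ± 0.05 SE, adjusted p = 0.0082), though not without EP300 KD1 replicate 3 (0.12). HDAC11 passed narrowly with the first hairpin (log2 -0.16 ± 0.066 SE, adjusted p = 0.043, lost in 14 of 23 alternatives), and not with the second (log2 -0.13, adjusted p = 0.106). Against all 6 controls together, its first change was 0.02 and did not pass, while its second was -0.31 and passed. HDAC6, a cytoplasmic tubulin deacetylase, had 0.08 and 0.02 (adjusted p = 0.0515 and 0.63), and was called in 9 alternatives with the first hairpin and 2 with the second. HDAC10 had -0.16 and 0.12 (adjusted p = 0.0668 and 0.174), and was called in 2 alternatives with each.

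Sirtuins, the NAD-dependent deacetylases, had 4 of 7 called lower and 2 higher with the first hairpin, where 32.3% of all rows were lower and 32.6% higher, and 4 of 7 lower and 1 higher with the second, where 29.9% of all rows were lower and 27.9% higher. SIRT7, a nucleolar enzyme (NM_016538, chr17:81911939-81918176), fell with both, to 21.02 ± 0.947 CPM in EP300 KD1 against 26.99 ± 0.914 CPM in NS1, and to 23.5 ± 0.124 CPM in EP300 KD2 against 27.4 ± 1.11 CPM in NS2 (SD, n = 3 each; log2 -0.36, adjusted p = 7.8e-07, and -0.22, adjusted p = 0.000246). SIRT1, which deacetylates p53 and histones, was higher with the second hairpin (log2 0.23 ± 0.035 SE, adjusted p = 1.41e-05) and had 0.12 ± 0.036 (SE, adjusted p = 0.00806) with the first, a call that DESeq2 did not make. SIRT6, a nuclear H3K9 deacetylase, fell with the first hairpin (log2 -0.23 ± 0.068 SE, adjusted p = 0.0054). The mitochondrial SIRT3 passed with both hairpins (log2 -0.15 and -0.16), but these calls were lost in 6 and 7 of 23 alternatives. SIRT2 and SIRT4 were under 1 CPM on average. SIRT2 had log2 fold changes of -0.67 and -0.70, calls lost in 12 and 16 alternatives, and SIRT4 had 0.96 with the first hairpin, lost in 3. A second SIRT2 row, with 175 counts against 195, passed with neither hairpin (log2 -0.46 and -0.12, adjusted p = 0.208 and 0.742). SIRT5 had a log2 fold change of -0.10 with the second hairpin, lost in 8 alternatives.

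H3K4 methyltransferases showed 1 call of 6 with the first hairpin and 4 of 6 with the second, against 64.9% and 57.8% of all rows. The first was KMT2A or MLL1, which rose to 171 ± 2.81 CPM in EP300 KD1 against 141 ± 8.63 CPM in NS1 (SD, n = 3 each; log2 0.28 ± 0.039 SE, adjusted p = 3.47e-06). With the second hairpin KMT2A had 0.11 ± 0.039 (SE, adjusted p = 0.0219), which no longer passed without NS2 replicate 1 (0.09), NS2 replicate 3 (0.11) or EP300 KD2 replicate 2 (0.07). KMT2C, which monomethylates H3K4 at enhancers, fell with the second hairpin, to 104, 108 and 103 CPM in EP300 KD2 libraries, against 136, 137 and 136 CPM in NS2 libraries. Its libraries overlapped in the first set (log2 -0.04, adjusted p = 0.328), and the second change of -0.37 ± 0.032 (SE, adjusted p = 8e-09) differed from the first (difference -0.34, adjusted p = 5.1e-06). KMT2C was also higher in NS2 than in NS1 (log2 0.11, adjusted p = 0.0164), and against all 6 controls together its first change passed (log2 -0.09). KMT2D, its close relative, passed with neither hairpin (log2 -0.02 ± 0.036 and -0.02 ± 0.036, SE). KMT2B and SETD1A, which act at promoters, rose with the second hairpin (log2 0.17 and 0.19, adjusted p = 0.000253 and 0.000239), and SETD1B passed with neither (log2 -0.06 and -0.11), though it was called in 1 alternative with the first and 4 with the second.

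Among the H3K36 and H3K79 methyltransferases, NSD2, which dimethylates H3K36, rose with the second hairpin, to 379, 375 and 377 CPM in EP300 KD2 libraries, against 301, 302 and 301 CPM in NS2 libraries. In the first set it had 260.0, 270.3 and 269 CPM in EP300 KD1 libraries, against 275, 281 and 269.7 CPM in NS1 libraries, and these groups overlapped. The second change was log2 0.32 ± 0.023 (SE, adjusted p = 3.85e-10) and the first -0.05 (adjusted p = 0.0908), with a difference of 0.37 ± 0.033 (SE, adjusted p = 1.99e-08). NSD2 was also higher in NS2 than in NS1 (log2 0.13, adjusted p = 0.000303), and against all 6 controls together its first change passed (log2 -0.11). SETD2, which adds the last methyl group to H3K36, passed with neither (log2 0.06 and -0.05), though its first change was called in 3 alternatives. NSD1, another H3K36 methyltransferase, had log2 fold changes of 0.07 and 0.05 and NSD3 of -0.11 and -0.09. The first-hairpin call of NSD1 was lost in 3 of 23 alternatives, its second change was called in 10, and the NSD3 calls in 2 and 15. DOT1L, the H3K79 methyltransferase, had -0.16 ± 0.05 (SE, adjusted p = 0.00882) with the first hairpin, lost without EP300 KD1 replicate 3 (-0.11). With the second it had 0.15 ± 0.049 (SE, adjusted p = 0.0123), lost without NS2 replicate 3 (0.14) or EP300 KD2 replicate 2 (0.12). Its hairpin difference of 0.32 ± 0.071 (SE, adjusted p = 0.00102) held in all 21 alternatives run for the difference.

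Histone demethylases were called in 9 of 11 genes with each hairpin, against 64.9% and 57.8% of all rows, with 5 higher and 4 lower with the first and 2 higher and 7 lower with the second. KDM5B, an H3K4 demethylase also called JARID1B (NM_006618, chr1:202724495-202808421), had 128, 124 and 129 CPM in EP300 KD1 libraries, against 100.0, 99.1 and 94.8 CPM in NS1 libraries. It had 70.8, 68.96 and 68.5 CPM in EP300 KD2 libraries, against 90.6, 92.5 and 92.5 CPM in NS2 libraries. EP300 KD1 libraries were the highest and EP300 KD2 libraries the lowest of the 12, the reverse of DNMT1. KDM5B rose with the first hairpin (log2 0.37 ± 0.028 SE, adjusted p = 7.93e-10) and fell with the second (log2 -0.40 ± 0.03 SE, adjusted p = 7.57e-10), a difference of -0.78 ± 0.041 (SE, adjusted p = 1.55e-11). Its relative KDM5A moved likewise (log2 0.23 and -0.17, adjusted p = 1.43e-05 and 0.000358), as did the H3K9 demethylase KDM4B (log2 0.20 and -0.28, adjusted p = 0.00179 and 0.00016).

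The other H3K9 demethylases of that family differed from KDM4B. KDM4C fell with both hairpins (log2 -0.17 and -0.27, adjusted p = 0.000454 and 4.38e-06). KDM4A fell with the second, to 60.7 ± 1.48 CPM in EP300 KD2 against 79.7 ± 0.714 CPM in NS2 (SD, n = 3 each; log2 -0.39 ± 0.03 SE, adjusted p = 1.4e-09), and did not pass with the first (log2 -0.01, adjusted p = 0.718). KDM4A was also higher in NS2 than in NS1 (log2 0.13, adjusted p = 0.0034), and against all 6 controls together its first change passed (log2 -0.08). An annotated antisense gene, KDM4A-AS1, overlaps KDM4A, and the strand setting of the counting is not given in the sources used here. KDM6B, an H3K27 demethylase, fell with the second hairpin (log2 -0.46 ± 0.045 SE, adjusted p = 4.41e-08), and had -0.13 ± 0.044 (SE, adjusted p = 0.0148) with the first, lost without NS1 replicate 1 (-0.09) or NS1 replicate 2 (-0.11).

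KDM1A, also called LSD1, rose with both hairpins by similar small amounts (log2 0.18 ± 0.024 SE, adjusted p = 3.47e-06 and 0.15 ± 0.025 SE, adjusted p = 3.83e-05). KDM2B, which recruits a Polycomb complex to unmethylated CpG islands, rose with both too (log2 0.25 ± 0.037 SE, adjusted p = 8.41e-06 and 0.24 ± 0.035 SE, adjusted p = 8.97e-06). KDM2B was also higher in NS2 than in NS1 (log2 0.27 ± 0.037 SE, adjusted p = 1.83e-05), a gap as wide as either rise, and against all 6 controls together its changes were 0.11 and 0.38. KDM2A, its relative, fell with the first hairpin (log2 -0.31 ± 0.076 SE, adjusted p = 0.00144) and had -0.23 with the second, a call lost in 6 of 23 alternatives. KDM3B fell slightly with the first hairpin (log2 -0.11 ± 0.025 SE, adjusted p = 0.000827). KDM6A, listed under 1 CPM on average, passed with neither.

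Of the bromodomain readers, 2 were tested. BRD3, a member of the BET family (NM_007371, chr9:134030305-134068548), rose with both hairpins, to 58.5 ± 1.51 CPM in EP300 KD1 against 49.2 ± 0.927 CPM in NS1, and to 51.8 ± 0.886 CPM in EP300 KD2 against 47.7 ± 0.739 CPM in NS2 (SD, n = 3 each; log2 0.25 and 0.12, adjusted p = 1.07e-06 and 0.0033). The gene BRD3OS overlaps it in the annotation. BRD7, a subunit of the PBAF form of SWI/SNF, had 0.11 ± 0.035 (SE, adjusted p = 0.0103) with the second hairpin, lost without EP300 KD2 replicate 2 (0.09), and did not pass with the first. The BRD9 row had 0 counts in all 12 libraries, which allows up to 0.00713 CPM over their 420723357 counts, for counting error only. Whether the assignment of reads gives this 0, or the few counts of HDAC2, was not tested.

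The average of both hairpins' effects called 34 of 54 genes (63.0%), 14 higher and 20 lower, against 65.7% of all rows. Across the 54 genes, 17 passed in the same direction with both hairpins (31.5%, against 32.6% of all rows) and 10 in opposite directions (18.5%, against 11.2%). The 7 that were higher with both were SIRT1, KDM1A, KDM2B, KMT2A, BRD3, DNMT3A and DNMT3B (15.3% of all rows). The 10 that were lower with both were HDAC9, SIRT2, SIRT3, SIRT7, EZH1, KDM2A, KDM4C, KDM6B, NSD3 and TET2 (17.3% of all rows). HDAC1, HDAC7, SUZ12, DOT1L, DNMT1 and SMARCA4 were lower with the first hairpin and higher with the second (6 of 54, or 11.1%, against 5.68% of all rows), and KDM4B, KDM5A, KDM5B and ARID1B the reverse (4 of 54, or 7.41%, against 5.5%). These calls were not equally firm. At least 1 call was lost in some alternative for SIRT1 and KMT2A, and for SIRT2, SIRT3, EZH1, KDM2A, KDM6B and NSD3. The same held for HDAC1, HDAC7, DOT1L and ARID1B among the opposite changes. The test of the difference itself called 32 of 54 genes (59.3%), 16 with a higher and 16 with a lower change with the second hairpin, against 50.8% of all rows. That split was 20 and 10 with library totals alone and 19 and 12 with upper-quartile factors.

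The control lines differed in fewer of these genes. NS2 against NS1 gave 12 of 54 calls (22.2%), 7 higher and 5 lower, against 27.5% of all rows, each of them under 0.5 on the log2 scale, a size that 4.07% of all rows passed and reached. The widest of these gaps were in HDAC11 (log2 -0.36 ± 0.067 SE, adjusted p = 0.000455) and KDM2B (log2 0.27), and the others were HDAC1, HDAC3, HDAC6, KDM4A, KDM5B, KMT2C, NSD2, TET3, ARID1A and ARID1B. For 22 of the 35 calls with the first hairpin and 29 of the 38 with the second, the call was kept in all 23 alternative settings. How many calls over all rows were kept in this way was not counted.

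Other genes of the same complexes were counted from 9 lists of 179 genes, none of them among the 57. Of 167 tested, 59 rose and 53 fell with the first hairpin (67.1% called, against 64.9% of all rows) and 61 rose and 40 fell with the second (60.5%, against 57.8%). By direction, 32.6% of all rows were higher and 32.3% lower with the first hairpin, and 27.9% and 29.9% with the second. The second direction depended on scaling (48.2% of all calls higher, 61.3% with library totals alone), and these lists were not counted under other scalings. COMPASS subunits shared by the H3K4 methyltransferases had 4 higher and 5 lower of 13 with the first hairpin, and 8 higher with the second, where the other 5 did not pass. HDAC corepressor subunits had 11 higher and 12 lower of 28 with the first, and 6 higher and 12 lower with the second. The accessory Polycomb subunits had 8 higher and 6 lower of 24, then 9 higher and 4 lower. With the first hairpin and then the second, H3K9, H4K20 and arginine methyltransferases had 8 higher and 6 lower of 21, then 9 and 3, the other demethylases 4 and 2 of 13, then 3 and 4, and DNA methylation partners 3 and 3 of 6, then 4 and 2. The other SWI/SNF subunits had 5 higher and 6 lower of 19, then 7 and 6, ISWI, CHD and INO80 remodelers 11 and 3 of 23, then 9 and 4, and the other readers 5 and 10 of 20, then 6 and 5.

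Changes that passed and reached 1 on the log2 scale, at any CPM, were found in 5 of the 167 partners tested (2.99%) with each hairpin. Such changes were more frequent over all rows tested, which were not matched by level, at 10.18% with the first hairpin and 8.08% with the second. With a mean of at least 1 CPM, they were found in 6 of these partners with either hairpin. HR, a nuclear receptor corepressor with a demethylase fold, had 28.4, 32.3 and 29.9 CPM in EP300 KD1 libraries, against 82.99, 82.2 and 83.4 CPM in NS1 libraries. It had 32.9, 33.2 and 33.9 CPM in EP300 KD2 libraries, against 98.96, 93.6 and 101 CPM in NS2 libraries, so that all shRNA libraries were well below all controls (log2 -1.45 ± 0.04 SE, adjusted p = 2.09e-16 and -1.55 ± 0.039 SE, adjusted p = 6.59e-17). TBL1X, a subunit of the NCoR complex, fell with both as well (log2 -1.25 ± 0.12 SE, adjusted p = 2.61e-08 and -1.44 ± 0.13 SE, adjusted p = 8.36e-09). The ISWI ATPase SMARCA1 rose with both (log2 1.46 ± 0.079 SE, adjusted p = 6.21e-12 and 0.91 ± 0.087 SE, adjusted p = 3.46e-08). DPF1, a neural SWI/SNF subunit, rose to 1.24 ± 0.0408 CPM in EP300 KD1 against 0.7498 ± 0.116 CPM in NS1 and to 1.82 ± 0.0554 CPM in EP300 KD2 against 0.687 ± 0.235 CPM in NS2 (SD, n = 3 each; log2 0.73 and 1.40, adjusted p = 0.00322 and 3.94e-06). SMARCD3, the BAF60c subunit, rose with the first hairpin (log2 1.27 ± 0.093 SE, adjusted p = 6.31e-10) and did not pass with the second (log2 -0.13, adjusted p = 0.37), a difference of -1.40 ± 0.14 (SE, adjusted p = 1.32e-07). In SMARCB1, the remaining one, libraries of the same group disagreed by more than the change itself, and its values stand with the other observations.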

How the data were processed

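Per the labels' protocols, RNA was isolated with Trizol and sequenced as stranded Illumina TruSeq mRNA libraries. Per the submitters' processing notes, alignment by the authors used HISAT2 2.1.0 with build hg38, and featureCounts made the counts. Its settings, strand included, are not given in the sources used. The deposited values are raw counts for 29094 RefSeq accession rows. Symbols and gene coordinates came from a RefSeq table (28134 rows) and symbols of 486 further rows from GENCODE, and 474 rows had no symbol. SETD1B and ARID1B were paired through GENCODE.

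Rows were filtered with edgeR's filterByExpr (13424 kept), scaled by TMM and tested with edgeR 4.0.16 in R 4.3.3 by the quasi-likelihood test, with 1 coefficient per group over 12 libraries and Benjamini-Hochberg adjustment over all rows. SEs were derived from the test statistic. The procedure was run on simulated data in which few rows were changed, raised and lowered in equal number. Far more rows were called in the real data, so the simulation could not test the scaling. Alternatives used limma 3.58.1, DESeq2 1.42.0, other scalings, filters and controls, and leaving out each library. A chi-square test set replicates of a group apart beyond sampling noise (1.81 to 4.31 for each degree of freedom). The labels name no separate cultures, so the spread behind the p-values is that between libraries and may be technical.

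The 57 genes and all lists were chosen with earlier results of these data known. Values in every library are given for called genes with a log2 change of at least 0.5 and a mean of at least 1 CPM, and always for EZH2, SUZ12, DNMT1, DNMT3A, DNMT3B, SMARCA4, SMARCA2, HDAC1 and HDAC3. Partners were named, up to 3 a list, at a log2 change of at least 1. KDM5B, KMT2C, NSD2 and the other members given by name are named beyond this rule, a choice made with their values in view.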

Additional observations from a re-analysis of the deposited data

Results flagged for a closer look

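For 32 of the 54 genes tested, the change with the second hairpin differed from that with the first, by edgeR's test of the difference itself at an adjusted p of 0.05. Values below are the second log2 fold change minus the first. It was positive for DNMT1 (0.69), HDAC9 (0.62), EZH2 (0.51), SMARCA4 (0.50), SUZ12 (0.49), DNMT3B (0.48), NSD2 (0.37), DOT1L (0.32), HDAC10 (0.28), HDAC1 (0.19), HDAC7 (0.19), SETD1A (0.18), KMT2B (0.17), BRD7 (0.15), HDAC3 (0.13) and KDM3B (0.12). It was negative for HDAC5 (-1.01), KDM5B (-0.78), DNMT3A (-0.52), KDM4B (-0.49), KDM5A (-0.40), KDM4A (-0.38), KMT2C (-0.34), KDM6B (-0.33), TET2 (-0.26), ARID1B (-0.23), HDAC4 (-0.21), KMT2A (-0.17), EZH1 (-0.16), BRD3 (-0.13), SMARCA2 (-0.12) and SETD2 (-0.11).

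DNMT1, SUZ12 and SMARCA4 fell with the first hairpin and rose with the second, and KDM5B did the reverse, with no overlap between shRNA libraries and their controls. HDAC9, DNMT3A and DNMT3B moved the same way with both hairpins and differed in size. The call was not kept in every alternative for HDAC4, HDAC10, EZH1, KMT2A, SETD2, BRD3, BRD7 and SMARCA2. It was kept in all 21 that were run for the difference in the other 24 genes.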

How the results depend on the processing

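Counts of genes called stayed within 1.5 times their reported values in the alternatives that kept all libraries (11 for each hairpin, 10 for the average and between the controls, 9 for the difference), except that the hairpin difference had 10 genes with a lower second change with library totals alone, against 16. Leaving out 1 library at a time gave 29 to 35 genes called with the first hairpin (12 to 15 higher and 15 to 20 lower), 31 to 38 with the second (16 to 20 higher and 14 to 19 lower), 32 to 35 for the average of both (12 to 15 higher and 19 to 21 lower), 28 to 33 for the difference (15 to 18 higher and 12 to 16 lower) and 9 to 14 for NS2 against NS1 (4 to 9 higher and 3 to 6 lower). NS2 against NS1 gave 4 higher without NS1 replicate 3 or NS2 replicate 2, against 7, and 3 lower without NS2 replicate 1, against 5. The average of both hairpins' effects called 34 of the genes, 14 higher and 20 lower, and 21 higher and 17 lower with library totals alone or upper-quartile factors. HDAC11 with the first hairpin was the only called gene whose sign turned, to 0.023 against both controls together, where its adjusted p was 0.735. Among the scalings run, library totals alone moved the median of all rows farthest, by 0.069 on the log2 scale with the second hairpin.

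Replicate numbers did not pair the samples: deviations of same-numbered shRNA and control libraries correlated between -0.040 and 0.022. With a replicate block, 34 genes were called with the first hairpin, 38 with the second, 36 for the average, 32 for the difference and 12 between the controls. SIRT2, SIRT4 and KDM6A were under 1 CPM on average and left the test under the stricter filter.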

Other observations

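SMARCB1, a core SWI/SNF subunit outside the 57 genes, differed widely between libraries of the same group. It had 9.69, 5.304 and 1.103 CPM in EP300 KD1 libraries, against 0.759, 0.645 and 8.41 CPM in NS1 libraries. It had 0.809, 1.04 and 0.895 CPM in EP300 KD2 libraries, against 8.18, 0.722 and 13.5 CPM in NS2 libraries. The log2 fold change with the second hairpin of -3.03 ± 0.93 (SE, adjusted p = 0.00948) was not called without NS2 replicate 3 (-2.27) or by limma-voom, and that with the first of 0.61 (adjusted p = 0.516) became 2.91 and was called without NS1 replicate 3.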
